A study of Mus musculus with 13 samples.

Results

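Tendon and ligament genes were followed in the developing mouse axial skeleton through 4 genes, Scx, Mkx, Egr2 and Tnmd. Every probe set that the array annotation names with exactly 1 of these symbols was taken, which gave 6 of 45037 probe sets tested and 4 of 18193 genes named by 1 symbol. Lumbar tissue of E13.5 embryos was taken by laser capture, the presumptive IVD (intervertebral disc) apart from the adjacent presumptive vertebrae. RNA was amplified in 2 cycles from 50 ng and hybridised to 13 arrays. There were 4 arrays of mutant IVD (genotype Cre+;Tgfbr2lox/lox), 3 of control IVD (Cre-;Tgfbr2lox/wt), 3 of mutant vertebrae (written Cre+;Tgrbr2lox.lox in the labels) and 3 of control vertebrae (Cre-;Tgfbr2lox/wt). Controls thus carried 1 floxed allele and no Cre. In mutants Cre was driven by the Col2a promoter to remove exon 2 of Tgfbr2, the type II TGF-beta receptor, from sclerotome. Whether tissue of other origin in a capture kept the gene is not known from these data. In controls both tissues were taken from the same mice, and the captured disc was mostly annulus fibrosus with some notochord.

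Tendons join muscle to bone and ligaments join bone to bone, and in the trunk their progenitors arise from the sclerotome, next to the cells that form vertebrae and annulus fibrosus. Scx (scleraxis), a basic helix-loop-helix transcription factor, marks these progenitors, and the homeodomain factor Mkx (mohawk) and the zinc finger factor Egr2 (Krox20) act on collagen genes during tendon growth. Tnmd (tenomodulin) is a transmembrane glycoprotein of later tendon cells and is known to depend on Scx. TGF-beta is a known inducer of Scx. Egr2 is also an immediate early gene and a regulator of hindbrain and Schwann cell development, so it is not restricted to tendon.

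In GRCm38.p6 Scx lies at chr15:76457411-76459468, inside the span of Bop1 (chr15:76452988-76477249). It was read by 1428983_at and by 1456291_x_at, whose suffix marks probes that may also match other sequences. Egr2 lies at chr10:67534469-67542188, where it overlaps the non-coding gene Gm32255 (chr10:67496359-67536180). It was read by 1427683_at and by 1427682_a_at, whose suffix stands for several transcripts of 1 gene. Tnmd lies on the X chromosome at chrX:133851008-133865577 and was read by 1417979_at. RefSeq promoter windows of 300 bases (250 before the start of a transcript and 50 after it) were matched for 2 of the 4 genes, Egr2 with 5 windows and Tnmd with 1. They are shown because immediate early genes such as Egr2 are known for the CArG box, bound by serum response factor, and because Tnmd is known to depend on the E-box factor Scx. Capitals mark the CArG box. Both windows are read 5′ to 3′ on the plus strand of GRCm38.p6.
Egr2 promoter, chr10:67537619-67537918: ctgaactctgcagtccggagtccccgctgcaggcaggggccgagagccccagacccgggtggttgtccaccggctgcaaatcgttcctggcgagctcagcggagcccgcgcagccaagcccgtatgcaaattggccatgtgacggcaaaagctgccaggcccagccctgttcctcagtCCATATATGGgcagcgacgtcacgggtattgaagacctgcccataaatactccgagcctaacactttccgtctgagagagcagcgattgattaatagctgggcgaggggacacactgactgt
Tnmd promoter, chrX:133850758-133851057: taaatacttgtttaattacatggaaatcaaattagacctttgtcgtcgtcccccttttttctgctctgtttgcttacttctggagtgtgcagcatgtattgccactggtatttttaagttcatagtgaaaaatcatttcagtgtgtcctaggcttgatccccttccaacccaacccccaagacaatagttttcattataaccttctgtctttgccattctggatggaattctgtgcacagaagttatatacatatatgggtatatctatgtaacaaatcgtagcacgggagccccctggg

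A CArG box, searched on both strands, was found in 4 of the 5 Egr2 windows, 3 of which overlap and share the site shown, against 1.63% of 32851 promoter windows of the same length. The E-box CANNTG, which reads the same on both strands, was found in 4 of the 5 Egr2 windows and not in the Tnmd window, against 72.3% of all windows. These are matches of letters only, and the lack of one says nothing of the factor.

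Each probe set was deposited as a log2 signal from which its own median over the 13 arrays had been taken. A value of 0 is thus the middle array, a difference of 1 is a factor of 2 in signal, and how strongly a gene was expressed is unknown. Levels of different probe sets were not compared. Fewer cells of a type and less RNA per cell cannot be told apart in such tissue. The study describes the arrays of a group as biological replicates dissected from several separate embryos. At least 1 array stands at 0 by construction. Exactly 0 was listed in 2 arrays for Tnmd and in 2 for Egr2 1427683_at, and 27.0% of all probe sets had over 1 array at 0. It was listed in 3 arrays for Egr2 1427682_a_at, and 9.82% of all probe sets had over 2 arrays at 0. Mkx and Scx 1428983_at had 13 different values in 13 arrays, as 67.2% of all probe sets had. Scx 1456291_x_at and Egr2 1427682_a_at had 11.

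Some facts of the whole series bear on these values. Tgfbr2 (mean of 3 probe sets) lay between 0.06 and 0.48 in mutant IVD, against -0.11 to 0.29 in control IVD, and between -0.60 and -0.04 in mutant vertebrae, against -0.18 to 0.03 in control vertebrae. The limma differences were 0.11 in IVD and -0.24 in vertebrae, and neither passed the test. Whether these probes lie in exon 2 was not determined, so they check no deletion. Cartilage genes (mean of 15) lay between -1.62 and 0.02 in mutant IVD and between -1.25 and -0.03 in control IVD, below the 0.51 to 1.15 of mutant vertebrae and the 0.05 to 0.91 of control vertebrae. The mean of 8 liver genes was 3.84 in mutant IVD 4, 3.03 in mutant IVD 3, 5.68 in control IVD 1 and 5.84 in control vertebrae 1, and at most 0.24 in the other arrays. Neuronal genes (mean of 19) stood at 2.92 in mutant IVD 3 and at 2.32 in control vertebrae 3. Skeletal muscle genes (mean of 21) stood at 1.72 in mutant IVD 4 and at 1.57 in control IVD 1. Xist was between -6.88 and -5.83 in 5 of the 7 mutant arrays and between -0.04 and 1.81 in mutant IVD 3, mutant vertebrae 3 and the control arrays, so the arrays with little Xist, as in male embryos, were all mutant.

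**Figure D1:**
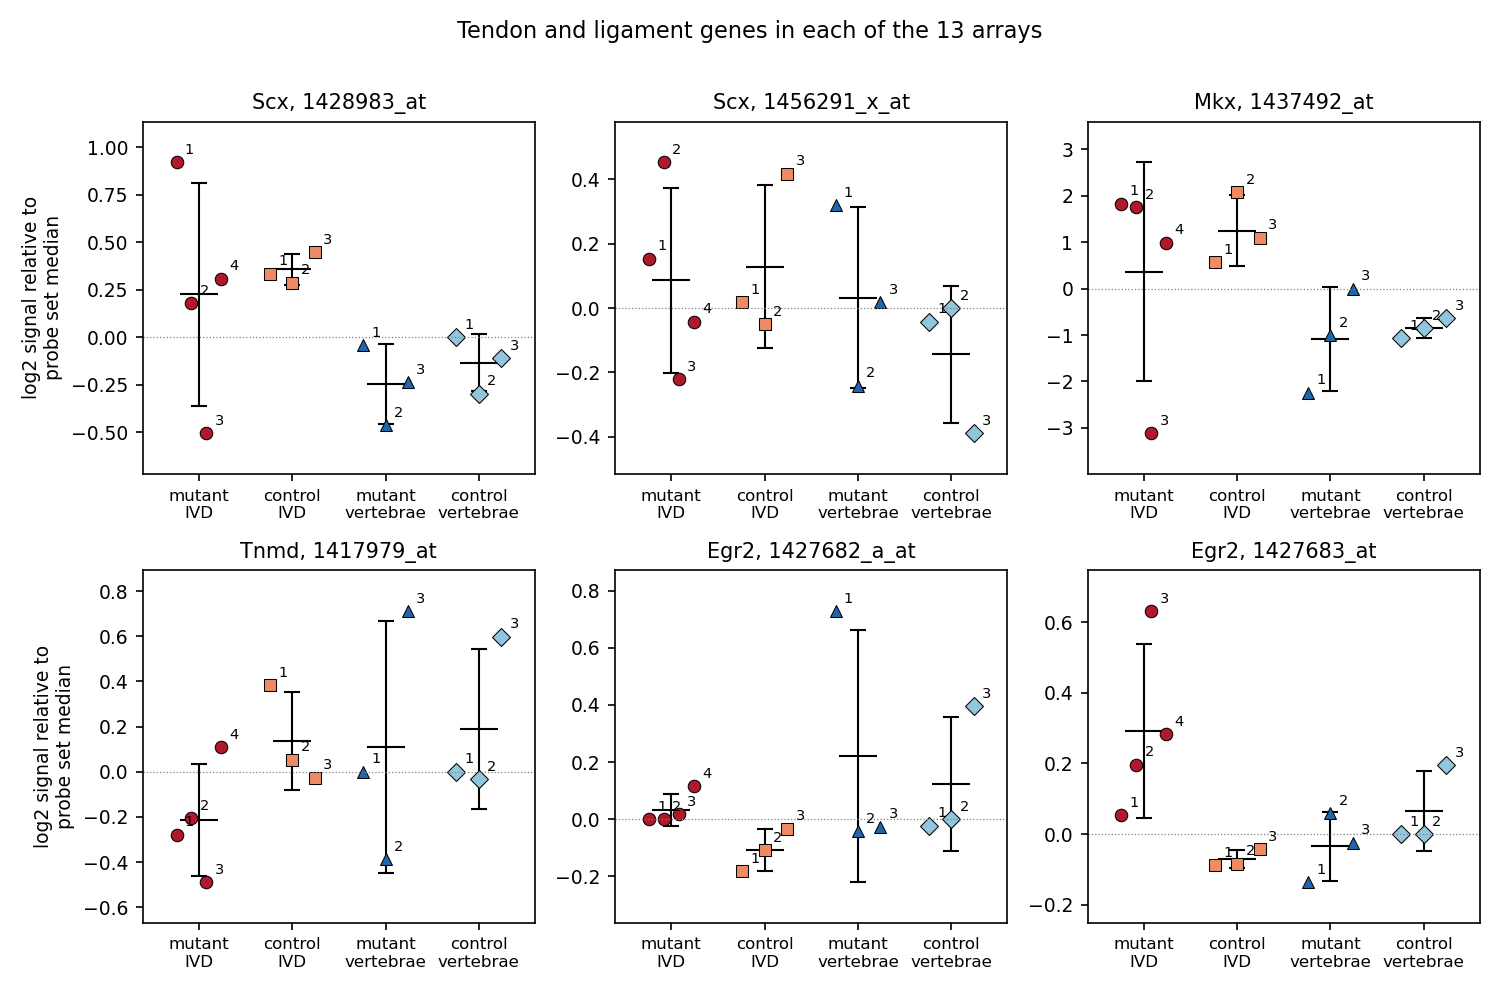
Log2 signal relative to the probe set's median (vertical axis) of the 6 probe sets in each array, by group (horizontal axis). Numbers name the arrays, and black bars give the group mean with its SD (n = 4 for mutant IVD and 3 for each other group). Mkx spans -3.12 in mutant IVD 3 to 2.07 in control IVD 2, and the values of the other probe sets lie between -0.51 and 0.92.

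Mkx varied most of the 6 probe sets. Its standard deviation over the 13 arrays was 1.61, against a median of 0.34 over all probe sets, and 169 probe sets (0.375%) had a larger one. The standard deviation was 0.40 for Scx 1428983_at, 0.25 for Scx 1456291_x_at, 0.36 for Tnmd, 0.24 for Egr2 1427682_a_at and 0.21 for Egr2 1427683_at. All but Mkx thus varied about as much as the middle probe set or less.

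In none of the 5 comparisons did a probe set of the 4 genes pass the test at an adjusted p under 0.05 (limma, Benjamini-Hochberg over 45037 probe sets). Between mutant and control IVD, which asks what the disc loses or gains without the receptor, 0 of 45037 probe sets were called (0%), with 1411 (3.13%) below 0.05 before adjustment. The methods' own test, analysis of variance with unequal variances, called 0 as well after the same adjustment (1404 before adjustment). The paper listed disc genes at p under 0.05 with a cut on fold difference, and names no adjustment. The counts of 0 by the methods' test, here and below, thus do not repeat the paper's procedure or its lists. Between mutant and control vertebrae, the same loss in the neighbouring cartilage, 0 were called (0%), with 1177 (2.61%) before adjustment, and the methods' test called 0 (614 before adjustment). Between control IVD and control vertebrae, which asks what marks the disc, 0 were called (0%), with 1105 (2.45%) before adjustment, and the methods' test called 0 (1094 before adjustment). Between mutant IVD and mutant vertebrae 7 were called (0.0155%), with 3634 (8.07%) before adjustment, and the methods' test called 0 (1877 before adjustment). For the interaction, the genotype difference in IVD minus that in vertebrae, 0 were called (0%), with 619 (1.37%) before adjustment. Of the 6 probe sets, 1 had an unadjusted p under 0.05 between mutant and control IVD (Egr2 1427683_at), and 0 had one in the other 4 comparisons.

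**Figure D2:**
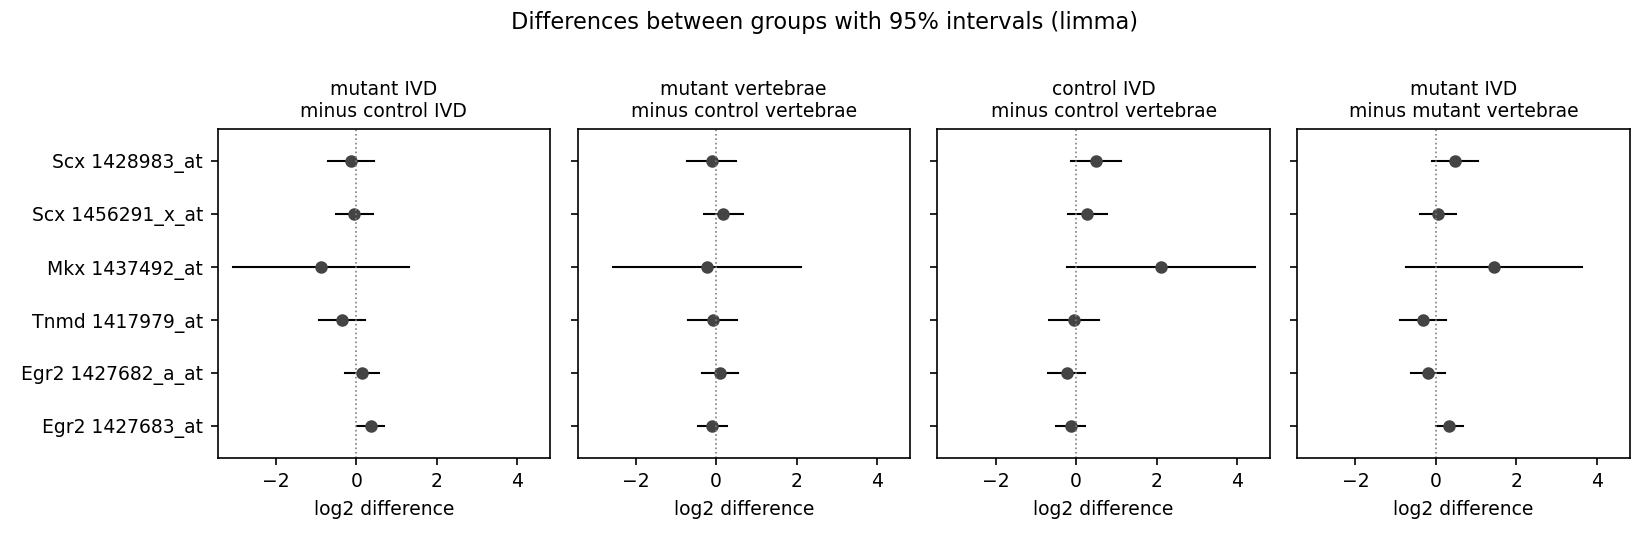
Differences between groups on the log2 scale (horizontal axes) of the 6 probe sets, 1 panel a comparison. Points are the limma differences and lines their 95% intervals. Every interval includes 0 but that of Egr2 1427683_at between mutant and control IVD (0.03 to 0.70), and the intervals of Mkx are the widest.

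Scx was higher in disc than in vertebrae in the control arrays, with no overlap for 1428983_at, but the difference did not pass the test. Scx 1428983_at was at 0.33, 0.29 and 0.45 in control IVD, against 0.00, -0.30 and -0.11 in control vertebrae. The difference was 0.49 (SE 0.28, 95% interval -0.12 to 1.11, limma adjusted p = 1.0). Control arrays of the same number deviated from their group means together (r = 0.80, 0.57 and 0.57 across probe sets), and with the array number taken as the mouse, as a random block in the 6 control arrays, limma called 42 probe sets (0.0933%, with 4862 or 10.8% unadjusted). In that blocked fit the Scx difference had an SE of 0.10 and an interval of 0.24 to 0.74, with an adjusted p of 0.192. Within numbers 1, 2 and 3, Scx 1428983_at was higher in IVD by 0.33, 0.59 and 0.56.

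In the mutant disc the values of Scx lay further apart. In mutant IVD Scx 1428983_at was at 0.92, 0.18, -0.51 and 0.31, against 0.33, 0.29 and 0.45 in control IVD, so that mutant IVD held both the highest and the lowest value of the 13 arrays. The difference was -0.13 (SE 0.26, interval -0.71 to 0.44, adjusted p = 1.0), and without mutant IVD 3 it was 0.11. In mutant vertebrae it was at -0.04, -0.46 and -0.24, against 0.00, -0.30 and -0.11 in control vertebrae, with overlap and a difference of -0.11 (SE 0.28, interval -0.73 to 0.50). Between mutant IVD and mutant vertebrae the difference was 0.47 (SE 0.26, interval -0.10 to 1.05, adjusted p = 0.704), and mutant IVD 3 lay below the 3 vertebrae arrays. It was 0.72 without that array and 0.24 without mutant IVD 1.

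Scx 1456291_x_at showed less. It was at 0.15, 0.45, -0.22 and -0.04 in mutant IVD, against 0.02, -0.05 and 0.42 in control IVD. It was at 0.32, -0.24 and 0.02 in mutant vertebrae, against -0.04, 0.00 and -0.39 in control vertebrae. All 4 groups overlapped, and the differences ran between -0.04 (mutant minus control IVD, interval -0.50 to 0.41) and 0.27 (control IVD minus control vertebrae, interval -0.21 to 0.76). The 2 Scx probe sets correlated over the 13 arrays with r = 0.50.

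Mkx lies at chr18:6934966-7004779 and was read by 1437492_at. Of the 4 genes it had the largest difference between control tissues. It was at 0.57, 2.07 and 1.10 in control IVD, against -1.07, -0.86 and -0.64 in control vertebrae, with no overlap. The difference was 2.10 (SE 1.07, interval -0.24 to 4.44, unadjusted p = 0.0739, limma adjusted p = 1.0). The spread is shared by all 4 groups in that fit, and mutant IVD spread widely. Fitted with only the control groups, limma gave an adjusted p of 0.627, and the unequal variance test did not call Mkx either. With the control arrays blocked by number the SE was 0.29 and the interval 1.42 to 2.79, with an adjusted p of 0.0892, and 0.119 with the number as a fixed block. Within numbers 1, 2 and 3 Mkx was higher in IVD by 1.64, 2.93 and 1.73. Leaving out each array in turn moved the difference between 1.69 (control IVD 2 left out) and 2.44 (control IVD 1 left out).

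In mutant IVD Mkx was at 1.83, 1.76, -3.12 and 0.99, against 0.57, 2.07 and 1.10 in control IVD. Mutant IVD 1, 2 and 4 lay within the range of control IVD, and mutant IVD 3 was lower than every other array of the series. The group means were 0.36 ± 2.35 (SD, n = 4) in mutant IVD and 1.25 ± 0.77 (n = 3) in control IVD, a difference of -0.88 (SE 1.004, interval -3.07 to 1.31, adjusted p = 1.0). Without mutant IVD 3 the difference was 0.28, so that array set its direction. In mutant IVD 3 the mean of neuronal genes was 2.92 and that of liver genes 3.03, and the mean of cartilage genes, 0.02, was the highest of the IVD arrays. Disc markers were low there: Pax1 was at -0.997, Pax9 at -0.83 and Fmod at -1.86. In the other mutant IVD arrays they lay at 1.25 to 1.35, 0.65 to 1.14 and 0.05 to 1.07. The cartilage gene Matn1 was at 0.60, against -3.69 to -2.49 in those arrays and 0.88 to 1.75 in mutant vertebrae. Acan, also a cartilage gene, was at -0.004, above the -1.20 to -0.14 of the other mutant IVD arrays. Col2a1 and Sox9 lay within the range of the other mutant IVD arrays. Low values in mutant IVD 3 were thus not limited to Mkx and Scx. Mutant IVD 4 had a mean of liver genes of 3.84, a neuronal mean of 0.61 and an Mkx value of 0.99. Control vertebrae 3 had a neuronal mean of 2.32, a liver mean of -0.03 and an Mkx value of -0.64, the highest of its group. Only mutant IVD 3 stood high in both means. The part of neuronal and liver transcripts, or of the tissue captured, in the Mkx value was not tested.

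In mutant vertebrae Mkx was at -2.24, -1.01 and 0.00, against -1.07, -0.86 and -0.64 in control vertebrae, with overlap and a difference of -0.23 (SE 1.07, interval -2.57 to 2.11). Between mutant IVD and mutant vertebrae the difference was 1.45 (SE 1.004, interval -0.74 to 3.64, adjusted p = 0.757). The values of mutant IVD 1, 2 and 4 were above those of the 3 mutant vertebrae arrays, and the difference was 2.61 without mutant IVD 3 and 0.87 without mutant vertebrae 1. The interaction was -0.65 (SE 1.47, interval -3.86 to 2.55), and 0.51 without mutant IVD 3, so that a genotype difference that differs between the tissues was neither shown nor bounded closely.

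**Figure D3:**
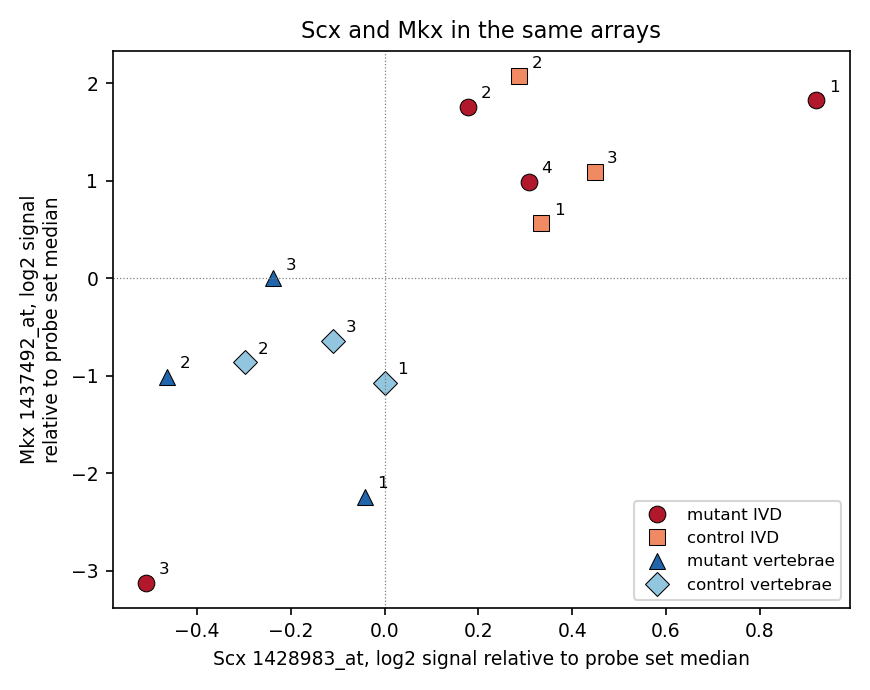
Log2 signal of Mkx 1437492_at (vertical axis) against Scx 1428983_at (horizontal axis), each relative to its median, 1 point an array with its number. All IVD arrays but mutant IVD 3 lie above 0 on both axes, and no vertebrae array does, with r = 0.78 over the 13 arrays.

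Scx 1428983_at and Mkx followed each other over the 13 arrays, with r = 0.78 and rho = 0.75. With group means removed r was 0.66, without mutant IVD 3 it was 0.72, and without the 2 arrays farthest in Scx (mutant IVD 1 and 3) 0.69. These are descriptions over arrays that share tissue of the same mice in the controls. Of the 15 pairs of probe sets the next in size of r over the 13 arrays was that of the 2 Scx probe sets (0.50). Tnmd had r = 0.03 with Scx 1428983_at and 0.16 with Mkx. With group means removed, Egr2 1427683_at had r = -0.86 with Scx 1428983_at and -0.70 with Mkx. Without mutant IVD 3, and with group means kept, these were 0.03 and 0.25.

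Tnmd overlapped between the tissues in controls. It was at 0.38, 0.05 and -0.03 in control IVD, against 0.00, -0.03 and 0.60 in control vertebrae, a difference of -0.05 (SE 0.28, interval -0.66 to 0.56). In mutant IVD it was at -0.28, -0.21, -0.49 and 0.11, against 0.38, 0.05 and -0.03 in control IVD, so that 3 of the 4 mutant arrays lay below the 3 control arrays and mutant IVD 4 lay among them. The difference was -0.35 (SE 0.26, interval -0.92 to 0.22, unadjusted p = 0.204). In mutant vertebrae Tnmd was at 0.00, -0.39 and 0.71, against 0.00, -0.03 and 0.60 in control vertebrae, a difference of -0.08 (SE 0.28, interval -0.69 to 0.53). From mutant vertebrae, mutant IVD differed by -0.32 (SE 0.26, interval -0.90 to 0.25), and by -0.022 without mutant vertebrae 3. The mutant arrays with high Xist, mutant IVD 3 and mutant vertebrae 3, held the lowest and the highest of all Tnmd values, and the part of embryo sex in this X-linked gene was not tested.

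Egr2 had the smallest spread and no overlap between the genotypes in disc. Egr2 1427683_at was at 0.05, 0.20, 0.63 and 0.28 in mutant IVD, against -0.09, -0.08 and -0.04 in control IVD. The difference was 0.36 (SE 0.15, interval 0.03 to 0.70, unadjusted p = 0.0367, limma adjusted p = 1.0), and 0.25 without mutant IVD 3, the highest array. Egr2 1427682_a_at was at 0.00, 0.00, 0.02 and 0.11 in mutant IVD, against -0.18, -0.11 and -0.03 in control IVD, a difference of 0.14 (SE 0.19, interval -0.28 to 0.56). The groups did not overlap for 2 of the 6 probe sets in this comparison, against 4.61% of all probe sets.

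In vertebrae the 2 Egr2 probe sets ran in different directions. Egr2 1427683_at was at -0.14, 0.06 and -0.02 in mutant vertebrae, against 0.00, 0.00 and 0.20 in control vertebrae, a difference of -0.10 (SE 0.16, interval -0.46 to 0.26). Egr2 1427682_a_at was at 0.73, -0.04 and -0.03 in mutant vertebrae, against -0.02, 0.00 and 0.40 in control vertebrae, a difference of 0.10 (SE 0.21, interval -0.36 to 0.55) that was -0.16 without mutant vertebrae 1. The groups overlapped for all 6 probe sets of the 4 genes, where 5.56% of all probe sets had groups apart. Over the 13 arrays the 2 Egr2 probe sets had r = -0.04.

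Between control tissues both Egr2 probe sets were lower in IVD, with no overlap, though neither passed the test. The differences were -0.23 (SE 0.21, interval -0.69 to 0.22) for 1427682_a_at and -0.14 (SE 0.16, interval -0.50 to 0.22) for 1427683_at, and without control vertebrae 3 they were -0.096 and -0.071 in that order. With Scx 1428983_at and Mkx, which ran the other way, 4 of the 6 probe sets had control tissues that did not overlap, against 7.44% of all probe sets. Between mutant IVD and mutant vertebrae no probe set had groups apart, against 6.63% of all. There Egr2 1427683_at had a difference of 0.33 (SE 0.15, interval -0.01 to 0.66, unadjusted p = 0.0566, adjusted p = 0.635, and 0.21 without mutant IVD 3) and 1427682_a_at one of -0.19 (SE 0.19, interval -0.61 to 0.24). The interaction of 1427683_at was 0.46 (SE 0.23, interval -0.03 to 0.95, adjusted p = 1.0).

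Egr2 was also set beside markers of Schwann cells and neural crest and beside the other immediate early genes. The mean of 13 Schwann cell and crest genes lay between -0.38 and 0.82 in mutant IVD, with the highest value in mutant IVD 3, against -0.37 to -0.05 in control IVD. It lay between 0.08 and 0.50 in mutant vertebrae, against 0.01 to 0.84 in control vertebrae. In mutant IVD and in control vertebrae, array 3 held both the highest mean of these genes and the highest value of 1427683_at. In mutant vertebrae array 3 held the highest mean and array 2 the highest 1427683_at. In control IVD array 1 held the highest mean and the lowest 1427683_at, and array 3 the highest 1427683_at. Egr2 1427682_a_at was highest in array 4 of mutant IVD, array 1 of mutant vertebrae and array 3 of both control groups. The part of the Schwann cell and crest genes in the Egr2 values was not tested. The mean of 15 immediate early genes lay between -0.35 and 0.52 in mutant IVD, against 0.05 to 0.40 in control IVD, and between -0.54 and -0.22 in mutant vertebrae, against -0.33 to -0.16 in control vertebrae. It was above 0 in all IVD arrays but mutant IVD 3 and below 0 in all vertebrae arrays, and Egr2 did not show that order.

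The order of the group means differed from gene to gene, and between the 2 probe sets of Scx and of Egr2. For Scx 1456291_x_at it ran from control IVD through mutant IVD and mutant vertebrae to control vertebrae. For Egr2 1427682_a_at it ran from mutant vertebrae through control vertebrae and mutant IVD to control IVD. For Scx 1428983_at and for Mkx it ran from control IVD at the top through mutant IVD and control vertebrae to mutant vertebrae. Scx 1428983_at averaged 0.22 ± 0.59 in mutant IVD (SD, n = 4) and 0.36 ± 0.08 in control IVD (n = 3), and -0.25 ± 0.21 in mutant vertebrae and -0.14 ± 0.15 in control vertebrae (n = 3 each). For Tnmd it ran from control vertebrae through control IVD and mutant vertebrae to mutant IVD. Tnmd averaged -0.22 ± 0.25 in mutant IVD and 0.14 ± 0.22 in control IVD, and 0.11 ± 0.56 in mutant vertebrae and 0.19 ± 0.36 in control vertebrae. For Egr2 1427683_at it ran from mutant IVD through control vertebrae and mutant vertebrae to control IVD. Egr2 1427683_at averaged 0.29 ± 0.25 in mutant IVD and -0.07 ± 0.025 in control IVD, and -0.03 ± 0.10 in mutant vertebrae and 0.07 ± 0.11 in control vertebrae. In no comparison of groups that was tested did these probe sets pass the test.

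Genes with the most similar pattern to each member were taken by Pearson's r over the 13 arrays, the 5 highest of all genes and the 3 highest of the genes listed. With Mkx they were Ccn4 (r = 0.96), a secreted matricellular protein, Wif1 (0.94), a secreted Wnt inhibitor, Cpq (0.94), Nfib (0.93), a transcription factor, and Col8a1 (0.93), a short-chain collagen. With Mkx the listed genes were Tgfb3 (0.92), a TGF-beta ligand, Fbln5 (0.91), a protein of elastic fibres, and Pax1 (0.90), a sclerotome factor of the disc. Since mutant IVD 3 stands far below the other arrays, r was taken without it too, a choice made after seeing the data, and it was then 0.98 for Ccn4, 0.94 for Wif1, 0.91 for Col8a1, 0.94 for Fbln5 and 0.87 for Pax1. With Scx 1428983_at they were Pamr1 (0.94), Ephx1 (0.93), Fjx1 (0.91), Sh3d19 (0.91) and Col8a1 (0.90), and of listed genes Fgf18 (0.86), Gdf5 (0.83), a joint and ligament growth factor, and Jun (0.83). Col8a1 thus stood among the 5 highest with both Scx 1428983_at and Mkx.

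The remaining probe sets had other neighbours. With Scx 1456291_x_at the highest r were those of C030013G03Rik (0.87), Igsf23 (0.87), Tmtc3 (0.83), Rasl10a (0.83) and Kmt2d (0.82), and of listed genes Nr4a1 (0.77), Tgfbr2 (0.73, by 1 of its probe sets) and Atf3 (0.66). With Tnmd they were Hs3st2 (0.82), Hbp1 (0.80), Cldn3 (0.79), Slc6a11 (0.78) and Egfl6 (0.78), and of listed genes Tfap2b (0.73), Egr3 (0.62) and the small proteoglycan gene Dcn (0.61). With Egr2 1427682_a_at, which was highest in mutant vertebrae 1 and control vertebrae 3, they were Slitrk3 (0.98), Pnmt (0.97), Aif1 (0.97), Klk1b8 (0.97) and Icosl (0.97), and of listed genes Fgf4 (0.91), Sox10 (0.87) and Tnni2 (0.87). With Egr2 1427683_at they were Dleu7 (0.94), Srrm3 (0.93), Gfod2 (0.91), Duoxa1 (0.90) and 1500004A13Rik (0.90), and of listed genes Tcf15 (0.81) and the neuronal genes Elavl3 (0.80) and Syt1 (0.79). Without mutant IVD 3 r was 0.54 for Tcf15, 0.50 for Elavl3 and 0.41 for Syt1.

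**Figure D4:**
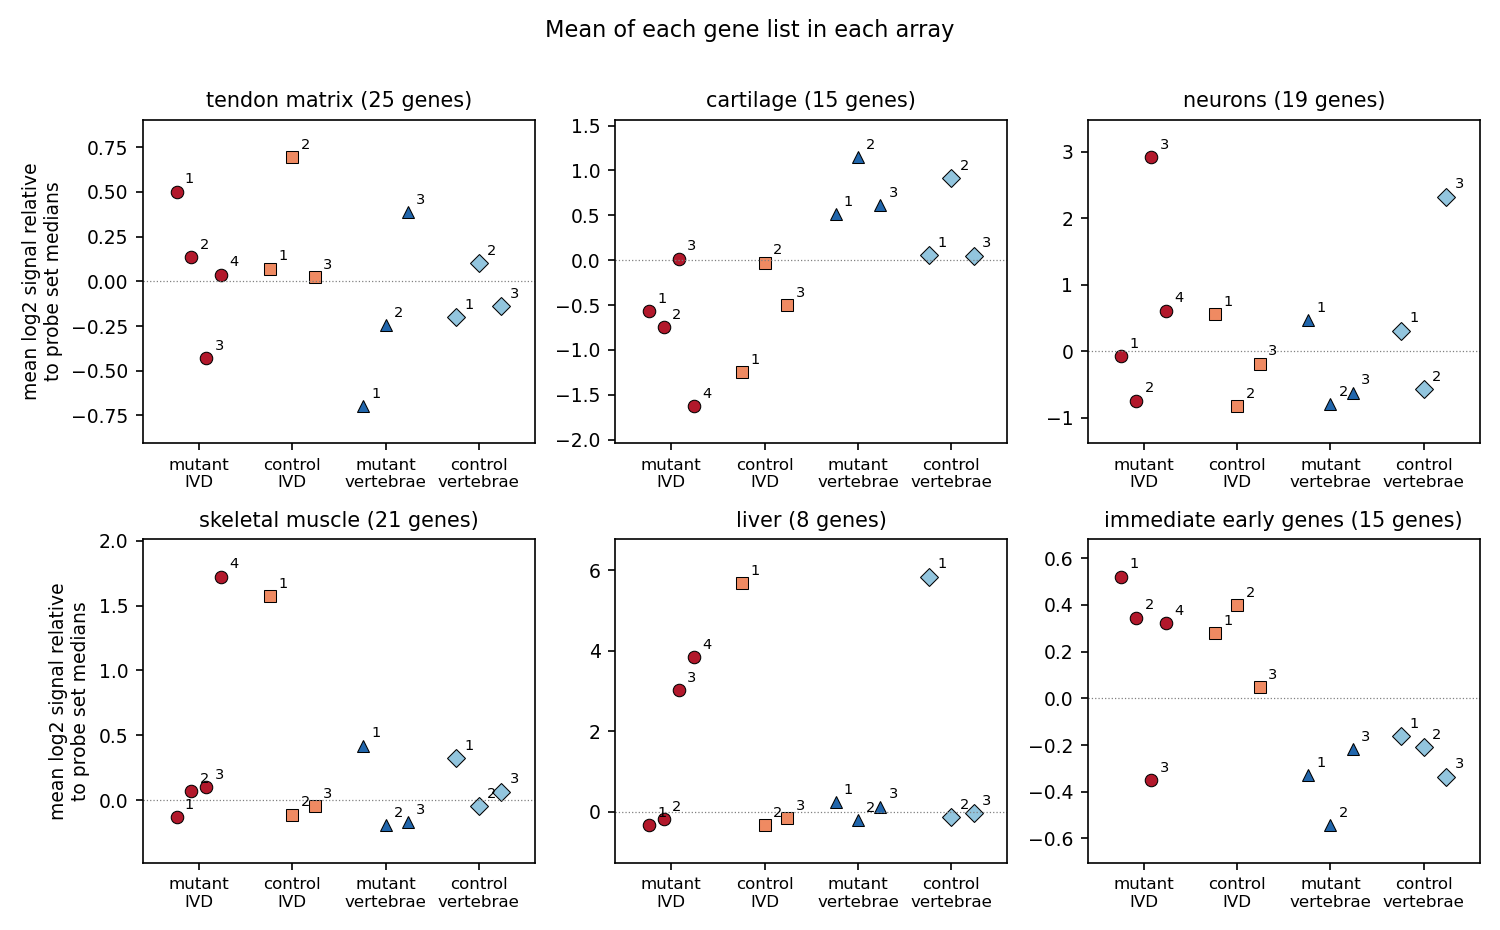
Mean log2 signal (vertical axes) of 6 gene lists in each array, by group (horizontal axes), with the array number beside each point. Liver genes stand high in 4 arrays, neuronal genes in mutant IVD 3 and control vertebrae 3, and the immediate early genes are above 0 in all IVD arrays but mutant IVD 3.

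Matrix genes of tendon and ligament were more often higher in disc than in vertebrae in controls, but none passed the unblocked test. With the array number as a random block in the control arrays, limma called 66 of 18193 genes. Which listed genes were among those is not given here. The mean of the matrix genes lay between -0.43 and 0.50 in mutant IVD, against 0.02 to 0.69 in control IVD. It lay between -0.70 and 0.39 in mutant vertebrae, against -0.20 to 0.10 in control vertebrae, and was lowest among the IVD arrays in mutant IVD 3. Of 25 measured genes 17 were higher and 8 lower in control IVD, with a median difference of 0.40, against -0.01 over all 18193 genes, of which 47.8% were higher. Of the 25 genes 2 had an unadjusted p under 0.05 upwards and 1 downwards, where 2.68% of all genes had one in either direction. Those were Fbln5 (0.81, SE 0.34), Ptgis (1.20, SE 0.52), which codes for prostacyclin synthase, and Comp (-2.18, SE 0.99), a cartilage and tendon matrix protein. Fmod, a small proteoglycan of tendon and annulus, had a difference of 1.16 (SE 0.70). Of the fibrillar collagen genes in the list, Col1a1 had a difference of 0.97 (SE 0.63), Col3a1 of 1.13 (SE 0.86) and Col5a2 of 1.25 (SE 0.93). Like Fmod, these were named after their values were seen, and Col1a2, Col5a1 and Col11a1, also in the list, are not given. The skeletal muscle list, markers of a tissue that tendon adjoins, was higher in control IVD for 19 of 21 genes, with a median of 0.33. The list mean was 1.57, -0.11 and -0.04 in control IVD, against 0.33, -0.05 and 0.07 in control vertebrae, so among control IVD arrays only number 1 lay above all control vertebrae arrays. Ptgis had a difference of 0.64 without control IVD 2 and Comp one of -1.34 without control IVD 1.

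Among the mutants 17 of the 25 matrix genes were higher and 8 lower in IVD than in vertebrae, with a median of 0.15, against 0.00 over all genes. The median was 0.07 without mutant IVD 1 and 0.47 without mutant vertebrae 3. Called genes were 0 of 25, against 5 of 18193. Comp had a difference of -4.04 (SE 0.93, interval -6.06 to -2.02, adjusted p = 0.190). Fmod had one of 1.89 (SE 0.65, adjusted p = 0.414) and Col14a1, a fibril-associated collagen gene, one of 1.23 (SE 0.48, adjusted p = 0.509), which was 0.59 without mutant vertebrae 1.

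Between genotypes none of the matrix genes passed the test either. Set against control IVD, 9 of 25 were higher and 16 lower in mutant IVD, with a median of -0.15, against 0.04 over all genes, of which 58.2% were higher. That median turned to 0.019 without control IVD 2. The 3 smallest p-values were those of Cilp (0.47, SE 0.15), Ptgis (-1.17, SE 0.48) and the small proteoglycan gene Bgn (-0.84, SE 0.50), all with an adjusted p of 1.0. Without control IVD 2 the difference was -0.60 for Ptgis and -0.44 for Bgn. Set against control vertebrae, 10 were higher and 15 lower in mutant vertebrae, and the median was -0.11, against 0.03 over all genes, but 0.19 without mutant vertebrae 1. There Fmod had a difference of -1.65 (SE 0.70, interval -3.17 to -0.13), Cilp2 of 0.27 (SE 0.16) and Thbs4 of -0.50 (SE 0.30), with adjusted p of 0.999. In the interaction 10 genes were above 0 and 15 below, with a median of -0.04 and 0 of 25 called, as 0 of 18193 genes were. Leaving out control IVD 2 gave a median of 0.19, and leaving out mutant vertebrae 1 gave -0.37. The smallest p-values there were those of Ptgis (-1.09, SE 0.71), Comp (-1.86, SE 1.36) and Cilp (0.30, SE 0.22). They were -0.53 for Ptgis without control IVD 2 and -1.07 for Comp without control vertebrae 1.

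**Figure D5:**
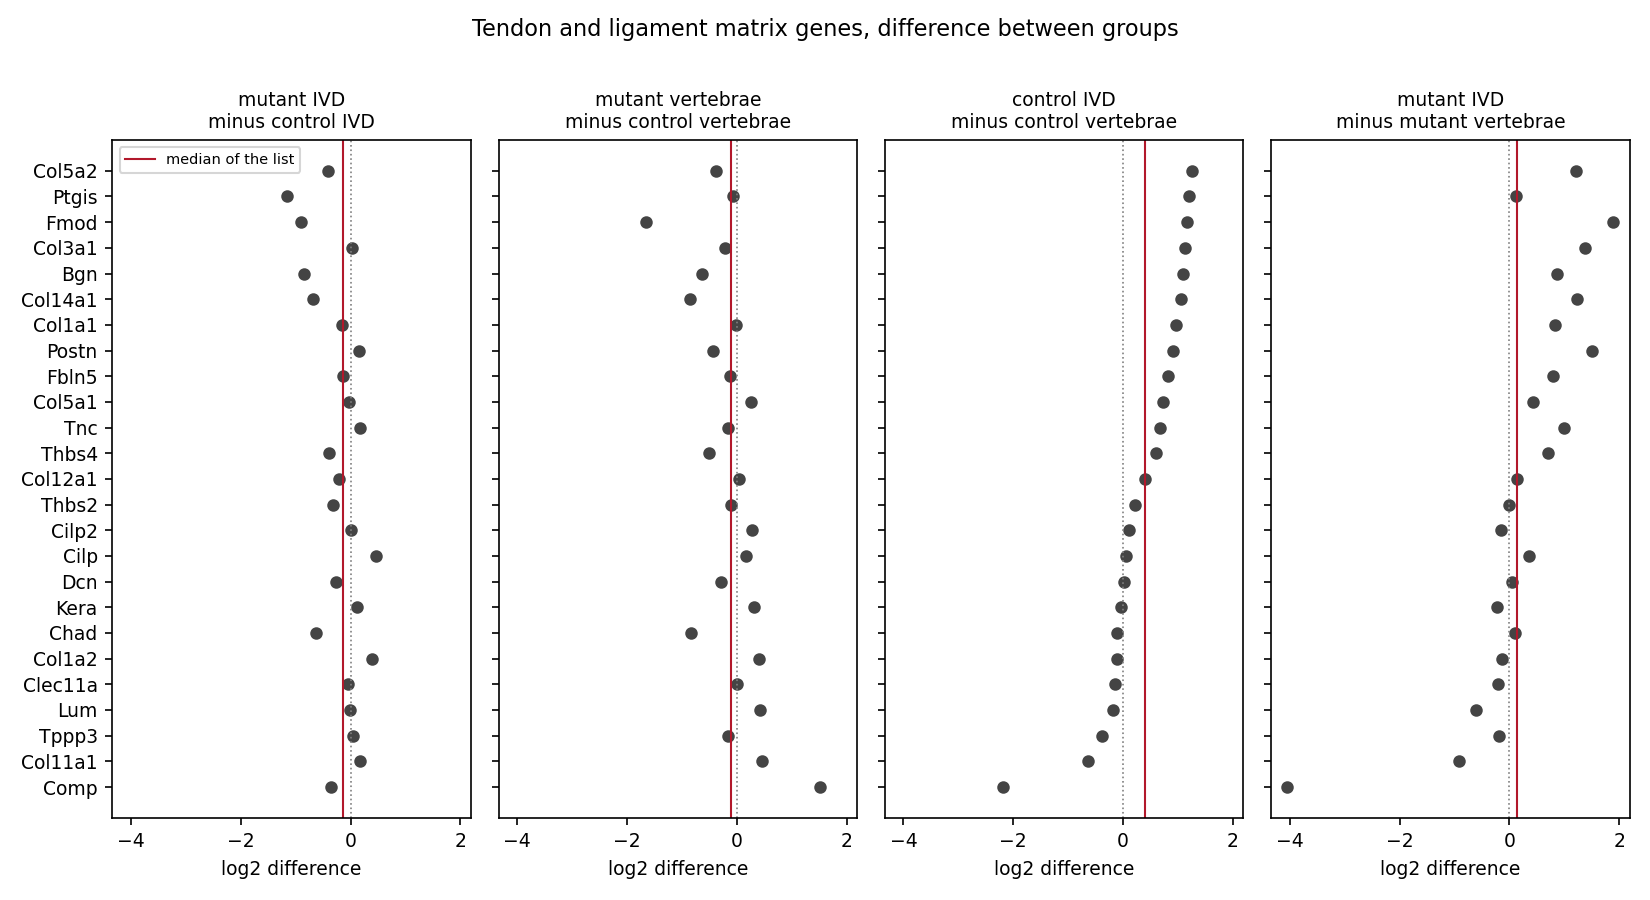
Log2 differences between groups (horizontal axes) of the 25 tendon and ligament matrix genes (vertical axis, ordered by the difference between control tissues), 1 panel a comparison. Red lines mark the medians, -0.15, -0.11, 0.40 and 0.15 from left to right, and Comp stands apart in both tissue comparisons.

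Genes that act on tendon cells or on Scx, transcription factors and members of the FGF and TGF-beta pathways, were measured for 26 of 30. Between control tissues 14 were higher and 12 lower in IVD, where 47.8% of all genes were higher. In the unblocked fit 0 were called, as 0 of 18193 genes were. With the control arrays blocked by number (random block) limma called 66 of 18193 genes. Whether Gdf5 or other regulators were among those is not given here, and the values below are of the unblocked fit. The median was 0.08, and 0.0055 without control IVD 2. Gdf5 had the largest difference, 3.08 (SE 0.76, interval 1.42 to 4.73, unadjusted p = 0.00158, adjusted p = 1.0), followed by p-value by Tgif1, a repressor of TGF-beta responses (0.39, SE 0.15), and Fgf18 (1.32, SE 0.54). In mutant IVD 18 were higher and 8 lower than in mutant vertebrae, with a median of 0.21 (0.11 without mutant vertebrae 1) and 0 of 26 called, and Fgf18 (1.72, SE 0.50, adjusted p = 0.322), Tgfbr2 itself (0.54, SE 0.17, adjusted p = 0.340) and Pax1 (1.47, SE 0.49, adjusted p = 0.389) had the smallest p-values.

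Between genotypes 19 of the 26 regulators were higher in mutant IVD and 7 lower, with a median of 0.04, the same as over all genes. The smallest p-values were those of the ligand Tgfb2 (0.60, SE 0.21), the co-receptor Tgfbr3 (0.56, SE 0.23) and Gdf5 (-1.51, SE 0.71, interval -3.05 to 0.04), with adjusted p of 1.0. The median was 0.17 without control IVD 2. The differences were -0.76 for Gdf5 without mutant IVD 3, 0.39 for Tgfb2 without mutant IVD 2 and 0.36 for Tgfbr3 without control IVD 2. Between mutant and control vertebrae 13 were higher and 13 lower, and the median was -0.04, and 0.0090 without control vertebrae 2. Tgfb2 had the smallest p there too (0.76, SE 0.22, interval 0.28 to 1.24, adjusted p = 0.999), followed by Egr1 (-0.63, SE 0.33), a relative of Egr2 that acts on Scx and collagen genes, and Tgfbr3 (0.38, SE 0.24). Egr1 was at -0.42 without mutant vertebrae 2. For the interaction the median was 0.08, with Egr1 (0.76), the ERK pathway inhibitor Spry2 (0.71) and Eya1 (0.67) smallest in p, and 0 called.

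Of the relatives of the 4 genes all 15 were measured. None was called in the unblocked fit. There 5 of 18193 genes were called between mutant IVD and mutant vertebrae and 0 in the other 4 comparisons. Between mutant and control IVD 5 were higher and 10 lower, the median was -0.13 (0.03 without control IVD 1), and differences ran from -0.52 for Irx5 to 0.60 for Twist1 (0.33 without mutant IVD 4), a helix-loop-helix relative of Scx. Tcf15, a helix-loop-helix factor of the somite, had the smallest p (0.46, SE 0.15, adjusted p = 1.0), followed by Twist1 and by Nab1 (-0.26, SE 0.18), a co-repressor of Egr factors. Between mutant and control vertebrae 9 were higher and 6 lower, and the median was 0.11 (0.0022 without mutant vertebrae 1). Irx3, a homeodomain relative of Mkx, had the smallest p there (1.25, SE 0.55, adjusted p = 0.999, and 0.70 without mutant vertebrae 3), followed by Egr1 (-0.63) and the helix-loop-helix gene Twist2 (0.44, SE 0.31, and 0.20 without mutant vertebrae 3). The interaction was 0.65 for Tcf15 (SE 0.23, interval 0.15 to 1.14) and -1.46 for Irx3 (SE 0.75), both with adjusted p of 1.0.

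Between control tissues 9 of the relatives were higher and 6 lower in IVD, the median was 0.18 (0.0066 without control IVD 1), and differences ran from -0.69 for Cnmd (chondromodulin, the relative of Tnmd found in cartilage) to 0.40 for Nab2 (0.22 without control IVD 2). The smallest p-values were those of Nab1 (0.27), Nab2 (0.40) and Tcf15 (-0.16), all with unadjusted p over 0.05. In mutant IVD 8 were higher and 7 lower than in mutant vertebrae, with a median of 0.01 (-0.077 without mutant IVD 1 and 0.16 without mutant vertebrae 3). Differences there ran from -1.53 for Cnmd to 0.73 for Egr1, and Tcf15 (0.48, SE 0.15, adjusted p = 0.356), Egr1 (SE 0.31, adjusted p = 0.560) and Irx3 (-1.07, SE 0.52, adjusted p = 0.641, and -0.52 without mutant vertebrae 3) were smallest in p.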

How the data were processed

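Expression was measured on 13 Affymetrix mouse genome arrays. Per the methods, the authors subtracted background and normalized by RMA in GeneSpring, and the deposited values are log2 signals with each probe set's median over the arrays subtracted. Every probe set has a median of 0, and the values were read as log2, the scale that RMA gives. How far a signal stood above background is not known, and precision rests on the few arrays per group. Of 45101 probe sets 64 controls were left out, and 34945 of the rest carry 1 gene symbol, 932 several and 9160 none.

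Means of the 4 groups were fitted with limma 3.58.1 (lmFit, eBayes) in R 4.3.3, two-sided, with Benjamini-Hochberg adjustment across 45037 probe sets, and tables were made in Python 3.11.15. For gene lists the probe sets of a gene were averaged, and 173 of 185 listed genes were measured. Alternatives were a fit of only the groups compared, quantile normalization, robust variance, array weights, replicate blocks, the methods' unequal variance test, one value per gene, leaving out 4 arrays with liver transcripts, and leaving out each array. Control arrays of 1 number were taken as 1 mouse in the blocked fits: the methods give both tissues as taken from the same mice, and deviations of same-numbered arrays correlated with 0.80, 0.57 and 0.57. Mutant arrays had -0.40, 0.24 and -0.15 and were not paired.

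The members and lists were chosen with earlier results of these data known. Named genes are the 4 members, the genes with the 5 highest r to each probe set and the 3 highest among the lists, the 3 smallest p-values per tendon list and comparison, the range of the relatives, Tgfbr2 and Xist. Fmod, Col1a1, Col3a1 and Col5a2 between control tissues were named after their values were seen. So were Pax1, Pax9, Fmod, Matn1, Acan, Col2a1 and Sox9 in mutant IVD 3.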

Additional observations from a re-analysis of the deposited data

Results flagged for a closer look

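In 18 sets of 4 mutant IVD values tested for an array far from the others, 4 were found, and chance gives about 1 in 20. Mkx 1437492_at was at -3.12 in mutant IVD 3, where the nearest of the other 3 mutant IVD arrays was at 0.99. Egr2 1427682_a_at was at 0.115 in mutant IVD 4, with the nearest at 0.02. The mean of 21 skeletal muscle genes was 1.72 in mutant IVD 4, with the nearest at 0.10. The mean of 3 Y-linked genes was -0.021 in mutant IVD 3, with the nearest at 1.90.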

How the results depend on the processing

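A result here is 1 probe set in 1 comparison under 1 setting, so 1 fit gives several results. No probe set of the 4 genes was called in any of 240 results of the alternatives or 234 results without 1 array. The smallest adjusted p was 0.0892 in the former (Mkx between control tissues with the random replicate block) and 0.0719 in the latter. Of 30 differences 14 turned direction at least once. Between control tissues 0 probe sets were called, against 2 with array weights, 42 with the replicate number as a random block and 32 as a fixed block. Between mutant IVD and mutant vertebrae 7 were called, against 0 with only those groups, 0 with the replicate block over all arrays (where mutant IVD 4 has no partner), 0 by the methods' test, 55 with array weights, 29 without the 4 arrays with liver transcripts, and 0 to 177 without 1 array (0 without mutant vertebrae 2, 177 without mutant IVD 3). Without the 4 liver arrays the difference between mutant and control IVD turned to 0.18 for Scx 1428983_at, 0.12 for Scx 1456291_x_at and 0.21 for Mkx, and the interaction to 0.23 for Scx 1428983_at and 0.54 for Mkx. Array weights turned mutant minus control IVD to 0.022 for Scx 1456291_x_at, mutant minus control vertebrae to 0.46 for Mkx, 0.20 for Tnmd and -0.11 for Egr2 1427682_a_at, mutant IVD minus mutant vertebrae to 0.034 for Egr2 1427682_a_at, and the interaction to 0.027 for Scx 1428983_at. Quantile normalization turned mutant minus control vertebrae to 0.24 for Mkx and -0.071 for Egr2 1427682_a_at. One value per gene turned that difference to 0.033 for Scx and -0.0016 for Egr2, and mutant IVD minus mutant vertebrae to 0.069 for Egr2. Leaving out 1 array at a time, mutant minus control IVD ran from -0.36 to 0.11 for Scx 1428983_at, -0.17 to 0.10 for Scx 1456291_x_at and -1.37 to 0.28 for Mkx. Mutant minus control vertebrae ran from -0.77 to 0.35 for Mkx, -0.38 to 0.17 for Tnmd and -0.16 to 0.23 for Egr2 1427682_a_at. Control IVD minus control vertebrae ran from -0.17 to 0.15 for Tnmd. Mutant IVD minus mutant vertebrae ran from -0.083 to 0.20 for Scx 1456291_x_at and -0.32 to 0.067 for Egr2 1427682_a_at. The interaction ran from -0.25 to 0.22 for Scx 1428983_at, -1.23 to 0.51 for Mkx, -0.52 to 0.030 for Tnmd and -0.091 to 0.30 for Egr2 1427682_a_at. The cause of these changes was not tested. Likeness without mutant IVD 3 was chosen after seeing the data.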
